A study of Mus musculus with 3 samples.

Results

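GATA4 peaks in adult mouse stomach were examined at 10 genes that mark or serve the surface (pit) cells of the gastric mucosa: the gastrokine genes Gkn1, Gkn2 and Gkn3, the trefoil factor genes Tff1, Tff2 and Tff3, and Psca, Ctse, Foxq1 and Vsig1. A peak belonged to the set when the deposited HOMER annotation named one of these genes, and 37 of the 50869 peaks did. All 10 genes had at least 1 such peak at some distance, as did 73.7% of 21031 protein-coding genes. The mice, of genotype G4fb/fb R26 Bira/Bira, carried a Flag- and biotin-tagged GATA4 together with the biotin ligase BirA, in the pull-down and the input samples alike. Chromatin came from stomach mucosa of adults aged 10 to 12 months, and 2 streptavidin pull-down libraries and 1 input library were sequenced. The authors called both pull-downs as 1 pool against the input, so each peak has 1 value, with no spread between replicates and no test between samples. No control without the tag is part of the comparison. The mucosa holds many cell types, no expression was measured, and which cells carry a peak cannot be told apart.

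Pit cells line the gastric surface and secrete mucus together with small protective proteins. Trefoil factors are compact secreted peptides that bind mucins and promote repair of the surface layer, and gastrokines are secreted proteins with a BRICHOS domain that are typical of the stomach. GATA4 is a zinc finger transcription factor of the gut endoderm that binds short DNA motifs built around GATA.

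The 2 gastrokine promoters that carried a peak are shown with that of Gkn3, which did not. RefSeq promoter sequences matched 4 of the 10 genes, and that of Vsig1 is not printed. Each line gives the 250 bases before the transcription start site (TSS), 5′ to 3′, in build GRCm38.p6, for Gkn1 at chr6:87350916-87351165 (minus strand), Gkn2 at chr6:87373115-87373364 (plus strand) and Gkn3 at chr6:87388936-87389185 (minus strand). Capitals mark every match to AGATAA or TGATAA, or to AGATAG or TGATAG, on either strand.
Gkn1: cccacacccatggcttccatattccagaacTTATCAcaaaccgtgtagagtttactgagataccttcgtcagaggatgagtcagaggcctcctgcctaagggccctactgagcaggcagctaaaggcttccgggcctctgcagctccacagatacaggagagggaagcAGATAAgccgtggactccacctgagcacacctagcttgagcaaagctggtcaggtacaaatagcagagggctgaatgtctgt
Gkn2: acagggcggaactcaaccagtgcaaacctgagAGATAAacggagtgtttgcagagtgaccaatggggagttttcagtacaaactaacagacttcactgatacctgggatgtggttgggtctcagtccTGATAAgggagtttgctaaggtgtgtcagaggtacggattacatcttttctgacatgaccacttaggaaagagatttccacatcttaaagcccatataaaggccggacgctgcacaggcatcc
Gkn3: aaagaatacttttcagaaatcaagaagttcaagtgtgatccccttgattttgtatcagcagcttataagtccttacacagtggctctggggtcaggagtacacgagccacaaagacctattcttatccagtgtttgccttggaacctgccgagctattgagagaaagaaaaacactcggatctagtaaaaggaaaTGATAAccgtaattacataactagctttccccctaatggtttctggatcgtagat

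Gkn1 and Gkn2 each held 2 matches, Gkn3 held 1, and Vsig1, the other member with a sequence, held 0. No match overlapped another. Of 32851 promoter windows of this length, 26.5% held at least 1 match and 6.40% held at least 2. In Gkn1 the matches lay 220 to 215 and 82 to 77 bases upstream of the TSS. The summit of the Gkn1 promoter peak, from the mm9 files, lay 146 bases upstream of the TSS, between both matches and 64 bases from the nearer one. In Gkn2 the matches lay 218 to 213 and 123 to 118 bases upstream, and the summit 47 bases downstream, so that the nearer match was 165 bases away. The Gkn2 promoter peak reached only from 80 bases upstream to 145 bases downstream of the TSS, so both matches lay outside it. These distances take the TSS as the same base in both builds. The letters describe the windows and do not show which base was bound.

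Most of the genes had peaks close by, and the most common arrangement was several modest peaks around 1 gene. A peak centred within 10 kb of the TSS was credited to 8 of the 10 genes, all but Ctse and Vsig1, against 64.4% of 21031 protein-coding genes. Within 1 kb, 6 of the 10 had one (Gkn1, Gkn2, Tff1, Tff2, Psca and Foxq1), against 57.4% of genes, so the share at promoters was near the background. Peaks 1 to 10 kb away were credited to 8 of the 10, against 26.0% of genes. At least 3 peaks within 10 kb were credited to 6 of the 10 (Gkn1, Gkn2, Tff1, Tff2, Tff3 and Psca), against 13.1%. Because the gastrokine genes lie in 1 cluster and the trefoil genes in another, these counts do not come from 10 separate places.

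The peaks were of moderate strength. A peak of at least 5-fold within 10 kb was credited to 6 of the 10 genes, against 41.5% of genes. A peak with a −log10 q-value of at least 10 was credited to 3 of the 10 (Gkn1, Gkn2 and Foxq1), against 17.2%. At any distance all 10 had a peak, against 73.7%. Fold enrichment, the authors' ratio of pull-down to local input at the peak summit, had a median of 4.72 over the 37 peaks (range 2.64 to 11.5) and 4.37 over all peaks. The 10 peaks within 1 kb of a TSS had a median of 4.82, below the 5.24 of all 16142 such peaks. The other 27 had a median of 4.72, above the 4.26 of all 34727 peaks that far away.

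**Figure D1:**
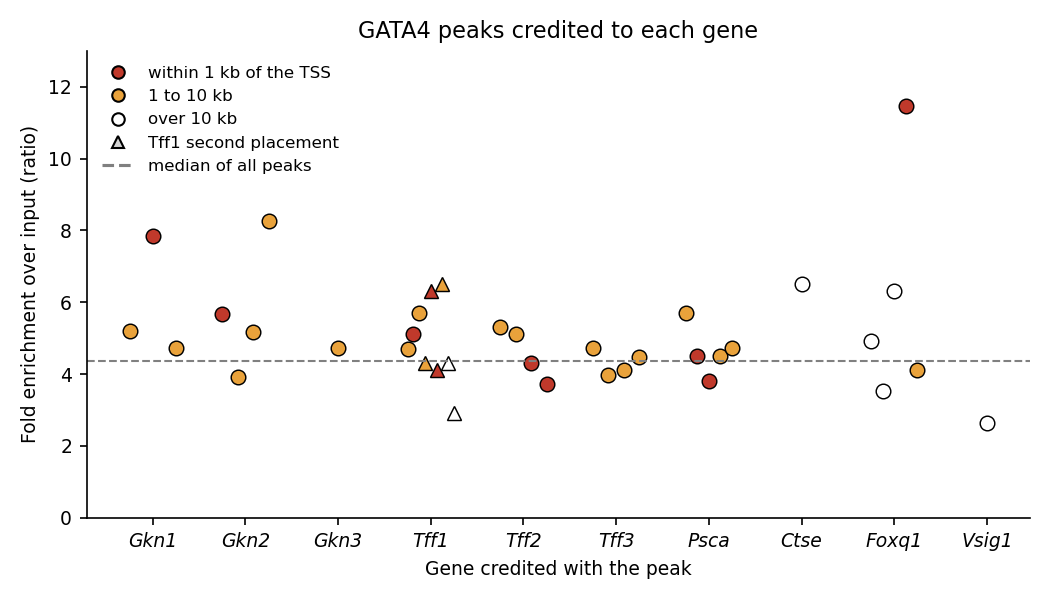
Fold enrichment over input (vertical axis, a ratio) of each of the 37 peaks, by the gene credited with it. Each symbol is 1 peak of the pooled call, colour gives the distance to the TSS, triangles are the second placement of Tff1, and the dashed line is the median of all peaks, 4.37; the Foxq1 peak at 11.5 stands highest and the Vsig1 peak at 2.64 lowest.

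The gastrokine genes carried the 2 highest peaks of the set after that of Foxq1. Their 8 peaks on chromosome 6 lay between 87293900 and 87342116 in mm9, a span of 48.2 kb. No peak inside it was credited to another gene, which crediting to the nearest TSS makes likely within a cluster. The median fold was 5.18. Of the next genes around the cluster, Antxr1 had a peak of 2.81-fold, 15.4 kb from the Gkn1 TSS.

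Gkn1 encodes gastrokine-1, one of the most abundant secreted products of pit cells. Its promoter peak (87300860 to 87301553) reached 7.86-fold with 38 pull-down tags at the summit (exact Poisson 95% interval 26.9 to 52.2, counting error only). This peak reached from 644 bases upstream to 49 bases downstream of the TSS, so it spanned the whole printed window. Intergenic peaks lay 3.71 kb upstream, at 4.72-fold, and 6.73 kb downstream, at 5.19-fold. The downstream peak had more tags than the promoter peak, 42 (30.3 to 56.8), but its local input was higher, 5.0 with the 1 that the caller adds, against 3.0 at the promoter. Its place as the second peak of Gkn1 thus depends on the input.

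Gkn2 encodes gastrokine-2, which is known to pair with trefoil factor 1 through a disulfide bond. All 4 of its peaks were centred downstream of the TSS, and the strongest was past the gene. That intergenic peak (87330371 to 87331150) reached 8.25-fold with 40 tags (28.6 to 54.5) and ranked 1782nd in the list. Its interval overlaps that of the Gkn1 promoter peak, and the order of these 2 peaks is within counting error. It also lay 8.17 kb from the TSS of Gkn3, between both start sites, so its credit to Gkn2 rests on distance alone. The promoter peak of Gkn2 (87323279 to 87323504) reached 5.68-fold with 27 tags (17.8 to 39.3). A peak in exon 4 of 6 reached 5.16-fold, and a peak in intron 2 of 5, at the shortest length in the list, 161 bp, reached 3.92-fold.

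Gkn3, the third gastrokine gene, had 1 credited peak (87341911 to 87342116), 3.08 kb upstream of its TSS, at 4.72-fold with 22 tags (13.8 to 33.3). No peak was centred within 1 kb of its TSS, and the window before that TSS holds 1 TGATAA. The TSS of Gkn2 lay 22.5 kb from that of Gkn1 and 15.6 kb from that of Gkn3.

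The peaks of the trefoil cluster covered a span of like size, with more peaks and a lower median fold. On chromosome 17, 11 peaks lay between 31258839 and 31307083, a span of 48.2 kb, again with none inside credited to another gene. Their median was 4.69-fold and their highest 5.71-fold, a level that 2 of the gastrokine peaks passed. A peak of the trefoil cluster had a median of 7 other peaks within 25 kb, against 5 in the gastrokine cluster and 3 over the whole list. Of all peaks, 28.3% had at least 6 others that near, so such crowding is common in the list.

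**Figure D2:**
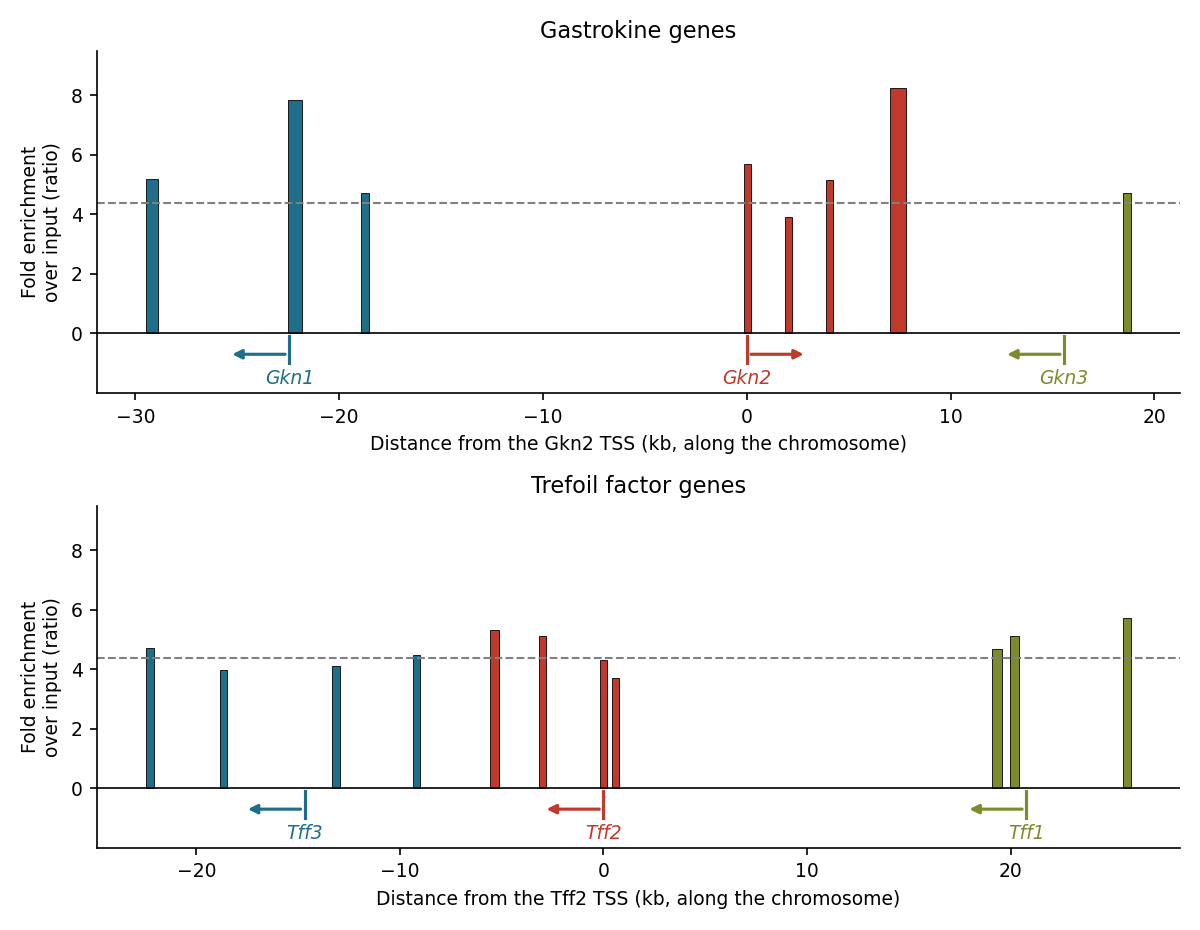
Fold enrichment over input (vertical axes, ratios) against position along the chromosome from the Gkn2 TSS (upper panel) and the Tff2 TSS (lower panel), in kb. Each bar is 1 peak, coloured by the gene credited with it and as wide as the peak (at least 0.35 kb), arrows mark each TSS and its direction, and the dashed line is the median of all peaks, 4.37; the gastrokine cluster has 2 tall peaks, at 7.86 and 8.25, and the trefoil cluster 11 between 3.72 and 5.71.

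Tff2 encodes trefoil factor 2, a product of mucous neck cells and antral glands more than of pit cells. All 4 of its peaks lay within 10 kb. The highest was intergenic, 5.36 kb downstream (31275634 to 31276097), at 5.31-fold with 25 tags (16.2 to 36.9), and the peak in intron 3 of 3 reached 5.11-fold with 24 tags. The peak over the TSS (31281115 to 31281348) was lower, at 4.32-fold with 20 tags (12.2 to 30.9), and another 595 bases upstream reached 3.72-fold with 17 tags (9.90 to 27.2). All 4 intervals overlap.

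Tff3, best known as the trefoil factor of intestinal goblet cells, had 4 peaks within 10 kb, with none inside 1 kb. They lay 5.50 kb and 1.54 kb upstream, in intron 2 of 2, and 7.60 kb downstream. Their folds ran from 3.97 to 4.72 and their summit tags from 19 to 22, so they cannot be ranked. The peak 5.50 kb upstream lay 9.18 kb from the Tff2 TSS, and the highest Tff2 peak lay 9.31 kb from the Tff3 TSS, so both count near either gene.

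Tff1, the trefoil factor of pit cells, is placed at 2 sites in mm9, and its counts depend on that. The chromosome 17 placement, which is that of the RefSeq table, had 3 peaks. The strongest was intergenic and 4.95 kb upstream (31306807 to 31307083), at 5.71-fold with 27 tags (17.8 to 39.3). Within the gene, a peak in intron 1 of 2 reached 5.11-fold with 24 tags, and a peak at the end site of the noncoding transcript Gm15318 reached 4.69-fold with 22 tags.

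The second placement, on chromosome 5, had 6 peaks, and the 3 upstream of the promoter were annotated to intron 16 of 18 of Tnrc18. At matching distances, a peak 4.90 kb upstream reached 6.51-fold with 31 tags (21.1 to 44.0), one in intron 1 reached 6.31-fold with 30 tags, and one at the end site 4.32-fold with 20 tags. A peak over the TSS, at 4.12-fold, and peaks 18.5 kb and 19.4 kb upstream, at 4.32-fold and 2.92-fold, had no partner in the chromosome 17 list. Likeness of the sequence at both sites was not tested, and signal that belongs to one site or the other cannot be told apart. Without chromosome 5, Tff1 keeps 3 peaks within 10 kb in place of 7, 1 peak within 1 kb in place of 3, and a strongest peak of 5.71-fold.

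**Figure D3:**
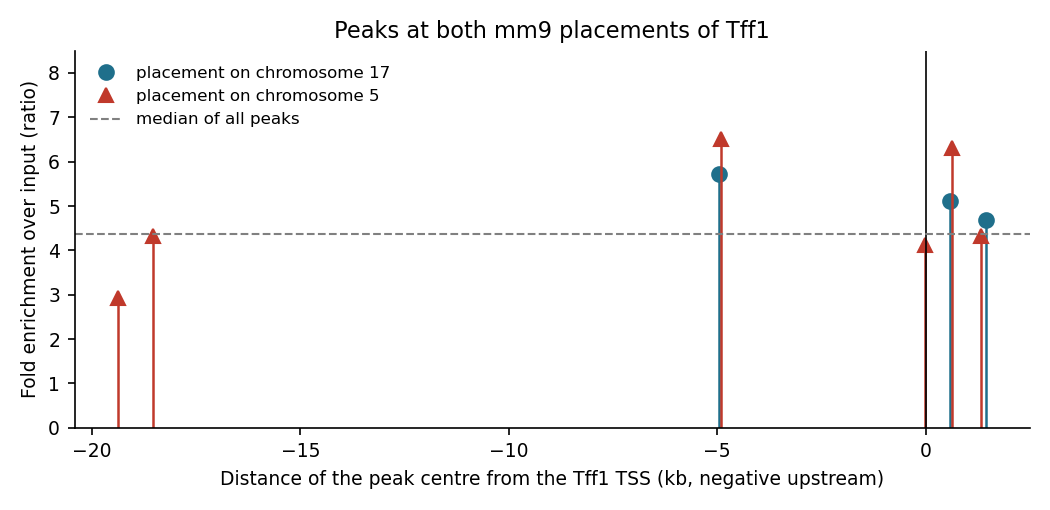
Fold enrichment over input (vertical axis, a ratio) against the distance of the peak centre from the Tff1 TSS in kb, negative upstream. Circles are the 3 peaks of the chromosome 17 placement and triangles the 6 peaks of the chromosome 5 placement, and the dashed line is the median of all peaks, 4.37; the peaks near −4.9 kb, at 5.71 and 6.51, fall at nearly the same distance in both placements.

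Psca encodes a small surface protein of the Ly6 family that is anchored in the membrane by a lipid. Its 5 peaks on chromosome 15 fell within 4.79 kb (74543057 to 74547841), the tightest group in the set. The strongest was 1.92 kb upstream (74543057 to 74543652), at 5.71-fold with 27 tags (17.8 to 39.3). The others ran from 3.81-fold to 4.72-fold. The lowest by fold was also the longest, 933 bp (74545246 to 74546178). It was annotated to intron 1 of 2, but its summit lay 14 bases before the TSS, with 24 tags (15.4 to 35.7) over a local input, plus 1, of 4.0.

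The surroundings of Psca were crowded with peaks of other genes, which its own count should be read against. Within 50 kb of its TSS lay 18 peaks credited to 8 other genes, 4 of them within 10 kb. The Jrk promoter reached 6.33-fold at 5.42 kb, and exon 1 of Them6 reached 7.26-fold at 6.62 kb, both above every Psca peak. The strongest neighbour was the promoter of Arc, at 8.65-fold and 42.3 kb. Peaks of Slurp1, Slurp2, Lypd2 and Lynx1, which are Ly6-related genes like Psca, reached at most 5.08-fold. A Psca peak had 11 or 12 other peaks within 25 kb, and 12.8% of all peaks had at least 10.

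Foxq1 encodes a forkhead transcription factor that in mice is needed for the surface mucin Muc5ac, and it had the strongest peak of the set. That peak (chromosome 13, 31649645 to 31652044) covered 2400 bp, longer than 99.96% of all peaks, and was annotated to the only exon of the gene. It reached from 394 bases before the TSS to 2005 bases after it, with its summit 59 bases after the TSS. It reached 11.5-fold with 58 tags (44.0 to 75.0) and ranked 240th in the list. Its tag interval lies above those of the Tff2, Tff3 and Psca peaks, and overlaps those of the strongest Gkn1 and Gkn2 peaks.

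Away from the gene, Foxq1 had 4 lower peaks. One 10.4 kb upstream (31639452 to 31639872) reached 6.31-fold with 30 tags (20.2 to 42.8) and falls just outside the 10 kb window. One 9.57 kb downstream, inside an intron of the transcript 1700018A04Rik, reached 4.12-fold and falls just inside. Farther upstream, peaks at 51.5 kb and 42.7 kb reached 4.92-fold and 3.52-fold, the latter in an L3 repeat. A peak of 6.27-fold in exon 2 of 1700018A04Rik itself lay 21.9 kb from the Foxq1 TSS.

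Ctse and Vsig1 had 1 peak each, both outside the window. Ctse encodes cathepsin E, an aspartic protease of the endosomes of surface cells. Its peak (chromosome 1, 133558374 to 133558773) lay in exon 2 of 10, 23.7 kb from the annotated TSS, at 6.51-fold with 31 tags (21.1 to 44.0). No other peak lay within 25 kb of it. The strand of Ctse could not be recovered from 1 peak, and no peak of any gene was centred within 10 kb of either possible TSS.

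Vsig1 encodes a junctional protein of the immunoglobulin superfamily made in stomach and testis. Its peak (X chromosome, 137431158 to 137431347) lay 10.9 kb upstream in an IAPEz-int repeat of the ERVK family. At 2.64-fold it ranked 50509th of 50869, with a −log10 q-value of 1.43. Its 25 tags (16.2 to 36.9) were as many as at the highest Tff2 peak, but its local input plus 1 was 6.0, against 2.98 there. Vsig1 therefore had no peak near its gene apart from this low one in a repeat.

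Few of the peaks lay in repeats, and local input was low at most of them, as in the whole list. For 30 of the 37 peaks (81.1%) the input was within 0.02 of the lowest value the caller allows, 1.98 scaled tags, against 70.5% of all peaks, a share near the background. At these peaks fold follows the pull-down tags alone. The annotation placed 2 of the 37 (5.41%) in repeats, at Foxq1 and Vsig1, against 19.5% of all peaks. Intergenic sequence held 14 peaks, introns 10, promoters 6, exons 4 and end sites 3. The promoter share, 16.2%, was near the 16.6% of the whole list. Of the 37 peaks, 18 were centred before the TSS and 19 after it.

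**Figure D4:**
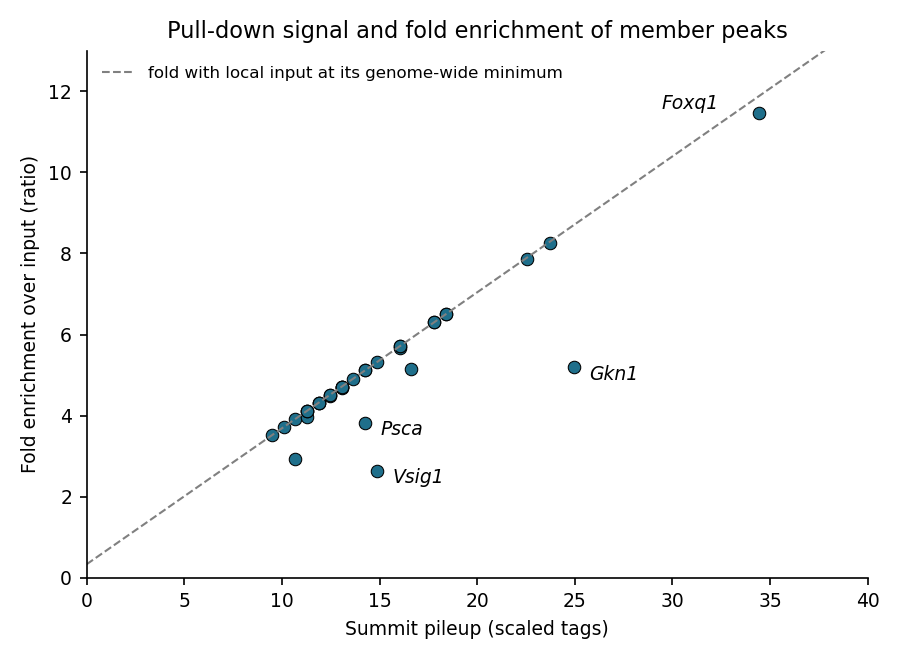
Fold enrichment over input (vertical axis, a ratio) against summit pileup in scaled tags for the 37 peaks, 1 point each. The dashed line is the fold a peak has when local input is at its genome-wide minimum. Most points lie on it. Among those under it are the Vsig1 peak (2.64), a chromosome 5 Tff1 peak (2.92), a Psca peak (3.81) and the downstream Gkn1 peak (5.19).

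Peaks were also credited to most other genes of the gastric surface. Of 20 other pit cell genes, 19 had a peak within 10 kb (64.4% of all genes), 15 within 1 kb (57.4%) and 9 one of at least 5-fold within 10 kb (41.5%, a share near that of the list). At least 3 peaks within 10 kb were credited to 7 of them (13.1% of all genes). The highest peaks within 50 kb were credited to the mucin genes Muc1 (18.5-fold, 4.74 kb downstream) and Muc5ac (12.6-fold, intergenic, 17.8 kb upstream). Next came Cldn18, which encodes the tight junction protein claudin-18 (8.70-fold at the promoter). The median of each gene's highest fold within 50 kb was 5.21 in this list, 6.11 in the gastrokine and trefoil set and 5.51 over the 14915 protein-coding genes that had a peak there. Without the chromosome 5 placement of Tff1, an alternative chosen after seeing the data, the value of the set was 5.71, close to that of all genes.

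Neck and antral gland genes, of the cells in which Tff2 is made, had a peak within 10 kb at 8 of 12. At least 3 peaks within 10 kb were credited to 5 of 12, against 13.1% of all genes. The list was led by Spdef, a mucous cell factor (12.4-fold), the transcription factor gene Creb3l1 (8.84-fold) and the pepsinogen C gene Pgc (7.50-fold). The Spdef and Creb3l1 peaks were intergenic, 5.67 kb and 31.4 kb upstream, and the Pgc peak was in an exon. No peak was credited to A4gnt or Lyz2. Intestinal goblet genes, the company Tff3 keeps in the intestine, had a peak within 10 kb at 8 of 12. At least 3 were credited to 1 of 12, against the same 13.1% of all genes. The share with a peak within 10 kb was near the 64.4% of all genes in both lists. The highest goblet peaks were credited to Spink4 (7.50-fold, 11.6 kb upstream), Sytl2 (5.59-fold, 0.12 kb downstream) and Best2 (4.52-fold, 6.7 kb downstream). Clca1, Zg16 and Ang4 had no peak. Over the genes with a peak within 50 kb, the median highest fold was 6.71 in the neck list and 4.12 in the goblet list. Tff3 itself, at 4.72, was nearer the latter, but so was Tff2, at 5.31. Gkn3 had the same highest fold as Tff3, so this does not set Tff3 apart. Each gene was placed in a single list, these medians depend on that placing, and other placings were not tested.

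A list of 17 transcription factors of gut epithelium was mostly of the foregut, with the intestinal factor Cdx2 among them. All 17 had a peak within 10 kb (64.4% of all genes) and within 1 kb (57.4%). Their median highest fold within 50 kb was 7.23, against 5.51 over the protein-coding genes that had a peak there. Gata4 (16.8-fold, intergenic, 10.8 kb upstream), Klf5 (11.02-fold, 0.2 kb downstream) and Klf4 (9.31-fold, 0.35 kb upstream) led that list. Foxq1, the only transcription factor among the 10 genes, would stand second in it by fold, at 11.5 against 11.02 for Klf5. The Foxq1 tag interval is wide (44.0 to 75.0), and that order was not tested. The gene lists share no control or replicate that would allow a test between them, and the differences are descriptions of 1 pooled peak list.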

How the data were processed

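Per the submitters' processing notes, the authors used Bowtie2, MACS2 and HOMER with mouse build mm9. Per the file headers, MACS2 2.1.0.20140616 called both pull-downs as 1 pool (38770530 of 59610626 tags kept, 1 per position) against the input (23023152 of 28116789 kept) at a q-value limit of 0.05. The larger set was scaled down, so that 1 pull-down tag counts 0.594, and each tag was lengthened to 161 bp. Separate depths for the pull-downs are not given in the sources used here.

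The deposited table gives per peak the summit pileup, which is coverage (a signal) in scaled tags, its fold enrichment, which is a ratio with 1 added on both sides, and the −log10 q-value. The deposited HOMER score, 10 times the latter, was not used. Distances run from the peak centre to the TSS.

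From these, summit tags were recovered as pileup divided by the scaling factor, which gave whole tags within 0.008 for all peaks. Exact Poisson 95% intervals cover counting error at the chosen summit only. Local input plus 1 is pileup plus 1, divided by fold. The TSS of a member came from the deposited distances. Background genes were 21031 protein-coding genes with a curated transcript in RefSeq (GRCm38.p6), which served for names, chromosomes and promoter sequence. Motif search and gene counting were tested on simulated data. All 10 members are described by every credited peak. From the other lists the 3 genes with the highest fold within 50 kb, those with no peak, and non-member neighbours within 50 kb were eligible to be named. Members and lists were chosen with earlier results of these data known. Python 3.11.15, pandas 2.3.3, scipy 1.17.1 and matplotlib 3.10.9 were used. Alternatives changed the distance window, the peak threshold, the crediting of peaks, repeats, second placements and the ranking.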

Additional observations from a re-analysis of the deposited data

How the results depend on the processing

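With only peaks of a −log10 q-value of at least 10, the genes with a peak within 10 kb fell from 8 to 3, the credited peaks from 37 to 3, and the median fold became 8.25. With only peaks of at least 5-fold, 15 peaks and 6 genes were left. The other alternatives gave 6 to 10 genes, 31 or 35 peaks and a median of 4.72. Leaving out second placements for the gene count was chosen after seeing the data and gave 8. Ranked by pileup, the strongest peak was the same for 9 of 10 genes, with Gkn1 as the exception, and ranked by −log10 q-value for all 10. No paired analysis was possible because the authors pooled both pull-downs, and for the same reason neither could be left out. At 16 to 58 tags per summit, most peaks of the set cannot be ranked against each other.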
